A study of Papio anubis with 25 samples.

Results

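The genes described here encode the fat-digesting proteins that the pancreas secretes into the gut: colipase (CLPS), pancreatic lipase-related protein 1 (PNLIPRP1), bile salt-stimulated lipase (CEL) and pancreatic phospholipase A2 (PLA2G1B). They were chosen by gene symbol from a list of 5. Of these, 4 were matched by symbol among the 21287 genes measured, and the fifth, PNLIPRP2, was not analysed here under that symbol. RNA was sequenced from pancreas, liver and the parotid, submandibular and sublingual salivary glands of 5 olive baboons (Papio anubis), with 1 library per tissue and animal, 25 libraries in all. All tissue was flash-frozen, the salivary glands were from the left side, and the labels name no treatment, allele or age. The animals numbered 1 to 4 were female and number 5 was the only male. Each library came from 3 thin tissue sections, so a gland library holds whatever lay in those sections.

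Dietary fat reaches the gut mostly as triglyceride, with smaller amounts of phospholipid and cholesterol ester, and acinar cells of the pancreas make the enzymes that break them down. Bile salts coat the fat droplet and displace pancreatic lipase from it, and colipase anchors the lipase to the droplet again. Bile salt-stimulated lipase needs bile salts and acts on cholesterol esters, vitamin esters and triglycerides. Pancreatic phospholipase A2 is secreted as an inactive precursor that trypsin activates, and it removes a fatty acid from phospholipids. PNLIPRP1 resembles pancreatic lipase in sequence but has little or no known lipase activity, and its role is not settled.

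Levels are given in TPM, a share of all transcripts in a library that is corrected for transcript length, so that genes can be compared with each other. How many reads stood behind each library is unknown. Values after ± are standard deviations (SD, n = 5 animals), and SE marks a standard error. These are bulk samples, so fewer cells of a type and less RNA per cell cannot be told apart. Pancreas and liver held their defining markers. The summed level of 7 pancreatic acinar markers was 85508 to 135301 TPM in pancreas and at most 2164 TPM elsewhere, and that of 6 hepatocyte markers was 85673 to 101719 TPM in liver and at most 1497 TPM elsewhere. Salivary acinar markers ranged widely within the glands, with sums from 2045 to 20431 TPM in parotid, while submandibular gland spanned 2197 to 70340.3 TPM and sublingual gland 1446 to 324978 TPM. They were at 1473 to 3884 TPM in pancreas and 945 to 4430.4 TPM in liver, so the lowest gland libraries held no more of them than these tissues. Of the gland libraries, 4 were set apart as rich in adipocyte, lymphocyte or skeletal muscle genes. Sublingual gland of baboons 1 and 4, rich in oral epithelium markers, was not among these 4. These were adipocyte genes in parotid of baboon 2 and submandibular gland of baboon 5, lymphocyte genes in parotid of baboon 5 and skeletal muscle genes in sublingual gland of baboon 2.

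In the pancreas, the 4 genes together made up 14.4% of all transcripts by TPM, from 10.4% in baboon 4 to 18.4% in baboon 5. CLPS was the highest or second highest of all genes in each of the 5 pancreas libraries. PLA2G1B ranked between 3 and 10, PNLIPRP1 between 15 and 32 and CEL between 15 and 30. Summed, they were at 143509 ± 30097 TPM in pancreas. The sum was 906 ± 677 TPM in parotid and 1078 ± 1195 TPM in submandibular gland, and 1302 ± 769 and 1317 ± 309 TPM in the sublingual gland and the liver. In 5 of 5 animals each other tissue lay below that animal's pancreas. The mean within-animal difference in log2(sum + 1) was -7.68 ± 1.15 for parotid, -7.51 ± 1.11 for submandibular gland, -6.91 ± 0.72 for sublingual gland and -6.78 ± 0.58 for liver. The exact sign-flip permutation test, two-sided, gave p = 0.0625 for each of these 4 differences, before and after Benjamini-Hochberg adjustment, which is the smallest value that 5 animals allow. Without pairing by animal (no replicate block), the exact permutation p was 0.007937 for each, also the smallest possible value.

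CLPS, the cofactor of pancreatic lipase, was the most abundant member in every tissue. In pancreas it was at 79149, 75345, 83261, 58983 and 128694 TPM in baboons 1 to 5. In parotid the values were 88.3, 1070.5, 603, 248 and 567 TPM, and in submandibular gland 323, 1809, 316, 262 and 362 TPM. In unscaled TPM, parotid of baboon 1 was the lowest of all libraries and submandibular gland of baboon 2 the highest outside the pancreas. Sublingual gland held 585, 486, 1631, 585 and 584 TPM, where baboon 3 stood above the other animals. Liver held 869, 928, 418, 870.2 and 852 TPM, where baboon 3 stood below them. The lowest pancreas library was 32.6 times the highest library of any other tissue. Pancreas thus did not overlap with the rest, while the ranges of the other 4 tissues overlapped. The share of all genes that separate in this way is not given here, for this or the other members.

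PNLIPRP1 was at 7638, 13089, 14548, 10632 and 5585 TPM in the pancreas of baboons 1 to 5, with its lowest value in baboon 5, the animal with the highest CLPS. In parotid it was at 18.7, 139, 107, 50.2 and 45.8 TPM, and in submandibular gland at 54.4, 256, 56.8, 29.6 and 38.8 TPM. As for CLPS, baboon 1 was lowest in parotid and baboon 2 highest in both glands. Sublingual gland held 106, 90.4, 206, 52.2 and 46.2 TPM and liver 121, 85.1, 80.1, 129 and 78.8 TPM. The lowest pancreas library was 21.8 times the highest other library.

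CEL, the lipase that bile salts activate, was at 11225, 7330.4, 7505, 12362 and 8670.3 TPM in pancreas. Baboons 1 and 4 were high, and they were the 2 animals in which PLA2G1B was lowest. In parotid CEL was at 10.1, 59.9, 73.4, 37.1 and 37.2 TPM, and in submandibular gland at 49.7, 152, 35.6, 28.8 and 38.8 TPM. Sublingual gland held 95.8, 63.6, 154, 63.1 and 41.5 TPM and liver 122, 59.5, 54.2, 91.0 and 79.8 TPM. The lowest pancreas library was 47.7 times the highest other library, which was the sublingual library of baboon 3.

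PLA2G1B, the phospholipase, was at 29334, 56168, 45469, 21529 and 41031.5 TPM in pancreas, with baboon 2 highest and baboon 4 lowest. In parotid it was at 66.8, 677, 269, 112 and 251 TPM, and in submandibular gland at 161, 994, 181, 109 and 133 TPM. Baboon 2 was again the highest in both glands. Sublingual gland held 337, 265, 677, 233 and 209 TPM and liver 348, 464, 229, 389 and 320.4 TPM. The lowest pancreas library was 21.6 times the highest other library.

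Which gland library was highest depended on the scaling between libraries. The TMM method, which scales libraries so that most genes match, gave the parotid and submandibular libraries of baboon 2 factors of 2.40 and 2.56, and the parotid and submandibular libraries of baboon 4 factors of 0.350 and 0.453. After division by these factors, submandibular PLA2G1B was at 310.5, 389, 305, 241 and 116 in baboons 1 to 5, and parotid PLA2G1B at 131, 282, 253, 321 and 101. Baboon 4 was then the highest in parotid for all 4 genes, and in submandibular gland baboon 1 was the highest for PNLIPRP1 and CEL. The gap between pancreas and the rest remained, with the lowest pancreas library at 55.1 to 77.8 times the highest other library for the 4 genes.

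**Figure D1:**
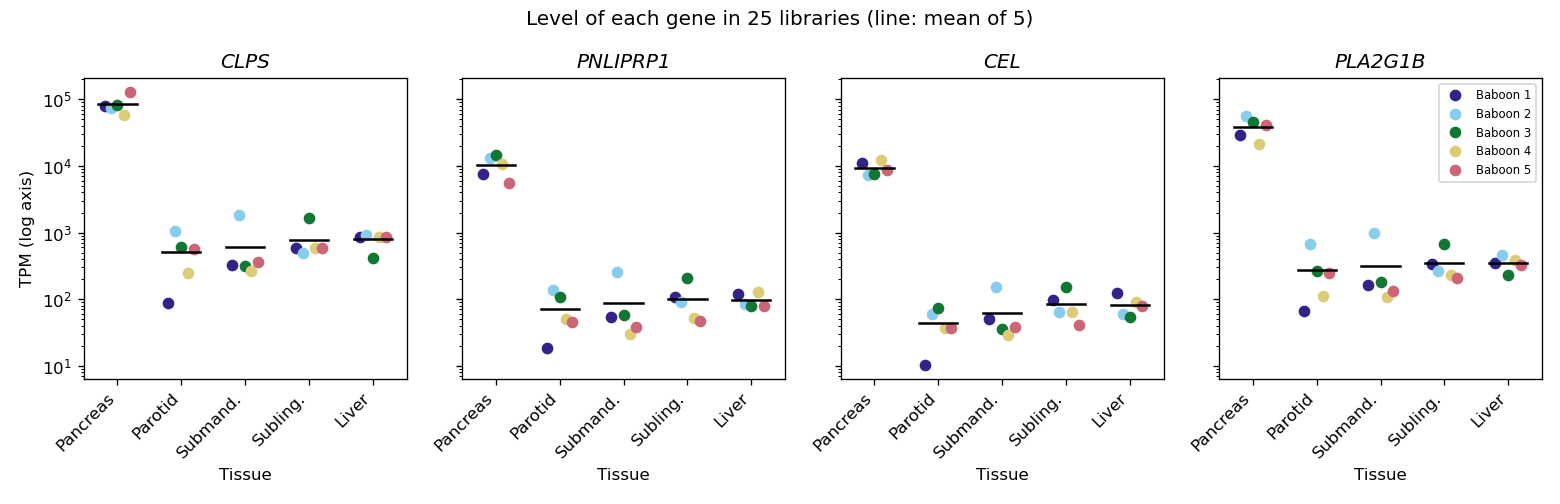
Unscaled TPM of CLPS, PNLIPRP1, CEL and PLA2G1B on a log axis in each of the 25 libraries by tissue, with 1 point per baboon and a line at the mean of 5. For each gene the 5 pancreas libraries lie above the other 20, and the submandibular library of baboon 2 and the parotid library of baboon 1 lie at the top and bottom of their tissues.

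Each of the other 4 tissues was then set against pancreas, gene by gene. Differences were tested with limma on log2(TPM + 1) over 14991 genes, with tissue and animal as terms, and they count as called where the log2 difference was at least 1 in size and the adjusted p (Benjamini-Hochberg) was under 0.05. All 4 genes were called in each of the 4 comparisons, higher in pancreas each time and in 5 of 5 animals. Of all genes tested, 17.5% were called in either direction between pancreas and liver, 3.82% between parotid and pancreas, 4.08% between submandibular gland and pancreas and 9.47% between sublingual gland and pancreas. Genes higher in pancreas were 2.86%, 2.4%, 2.81% and 2.49% of those tested in these comparisons. Genes higher in liver than in pancreas were 14.6%, and genes higher in sublingual gland than in pancreas 6.97%.

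Against liver, the log2 difference in pancreas was 6.76 for CLPS (SE 0.55, limma adjusted p = 7.62e-10), a 108-fold difference. It was 6.64 for PNLIPRP1 (SE 0.50), 6.87 for CEL (SE 0.53) and 6.74 for PLA2G1B (SE 0.50). The median over all genes tested was -0.44, of the opposite sign. In parotid against pancreas the log2 difference was -7.94 for CEL (SE 0.53), -7.75 for CLPS (SE 0.55), -7.49 for PLA2G1B (SE 0.50) and -7.36 for PNLIPRP1 (SE 0.50). The difference of CEL was the third largest of all genes in that comparison. In submandibular gland against pancreas it was -7.53 for CLPS, -7.50 for CEL, -7.43 for PLA2G1B and -7.27 for PNLIPRP1. In sublingual gland it was -6.91 for CEL, -6.89 for CLPS, -6.87 for PLA2G1B and -6.80 for PNLIPRP1. The SE of each gene was the same in the 4 comparisons. The fold changes behind these values are on the log2(TPM + 1) scale. The largest limma adjusted p of any member in these 4 comparisons was 4.32e-09. The median over all genes tested was 0.45, 0.17 and 0.63 for the 3 glands in the same order. TMM scaling brought these medians to 0.08, 0.03 and 0.11, and that of pancreas against liver to -0.02. The members' calls held under it and under each of the other alternatives run, but the sizes moved. With TMM scaling the CLPS difference from liver was 7.45, a 175-fold difference, and the other 3 members lay between 7.33 and 7.56. In sublingual gland against pancreas the 4 members lay between -7.70 and -7.59 with TMM scaling, and in parotid between -8.41 and -7.83.

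**Figure D2:**
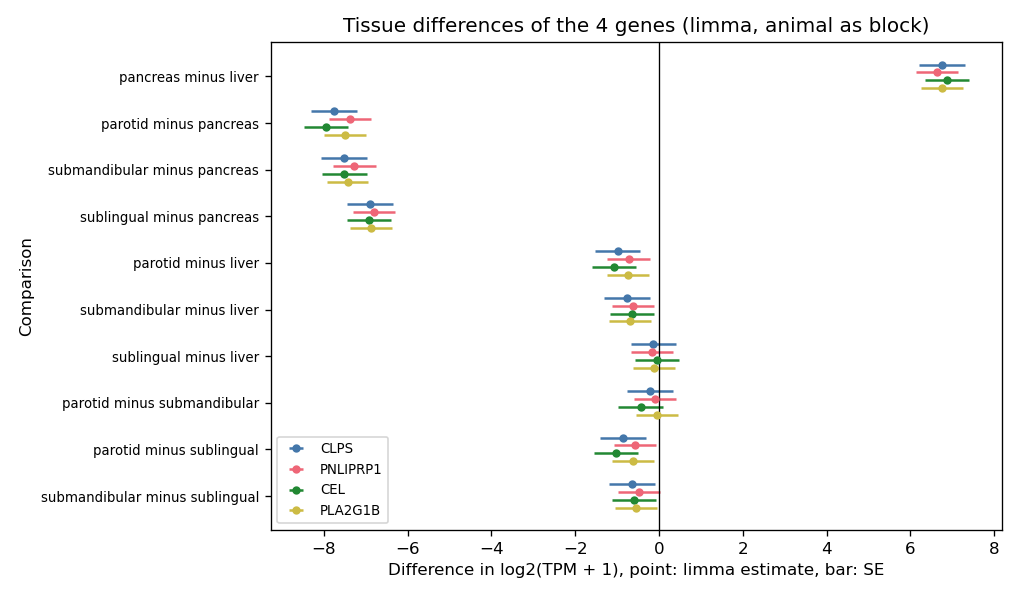
Difference in log2(TPM + 1) between each pair of tissues for the 4 genes, as the limma estimate (point) and its SE (bar). The 4 comparisons with pancreas lie between 6.64 and 7.94 in size, and the 6 comparisons among the other tissues lie within 1.08 of 0.

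Outside the pancreas, none of the 4 genes was called between any 2 tissues in limma, 0 of 4 in each of 6 comparisons. In those comparisons 13.8% of all genes were called for parotid against liver, 16.5% for submandibular gland, 15.4% for sublingual gland, 0% for parotid against submandibular gland, 0.113% for parotid against sublingual gland and 0.0667% for submandibular against sublingual gland. By mean TPM, the order of CLPS and of PLA2G1B was pancreas, liver, sublingual gland, submandibular gland and parotid, and for PNLIPRP1 and CEL sublingual gland stood marginally above liver. Neighbours in this order after pancreas did not differ beyond their spread. The closest pair was sublingual gland and liver, where the log2 differences lay between -0.16 and -0.04 (limma adjusted p from 0.888 to 0.974). For submandibular against sublingual gland they lay between -0.63 and -0.47 (adjusted p from 0.569 to 0.643), and TMM scaling turned the sign for all 4 genes. For parotid against submandibular gland they lay between -0.44 and -0.06 (adjusted p of 1). In that comparison 254 of the 14991 genes tested had an unadjusted limma p under 0.05. The lack of a call does not show equal levels. The widest differences were those of CEL in parotid, -1.08 against liver (SE 0.53, limma adjusted p = 0.201) and -1.03 against sublingual gland (SE 0.53, adjusted p = 0.585), the second in 5 of 5 animals.

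The make-up of the summed level was much the same in all tissues. In pancreas CLPS made up 58.8 ± 7.69% of the 4-gene sum, PLA2G1B 26.7 ± 6.80%, PNLIPRP1 7.51 ± 2.99% and CEL 7.05 ± 3.23% (SD, n = 5). In the other 4 tissues the mean share of CLPS lay between 55.7% in parotid and 59.3% in liver, and that of PLA2G1B between 26.7% and 29.9%. PNLIPRP1 lay between 7.60% and 8.75% and CEL between 5.59% and 6.56%. These differences in mean share were smaller than the SD over animals in pancreas. Shares were described and not tested.

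**Figure D3:**
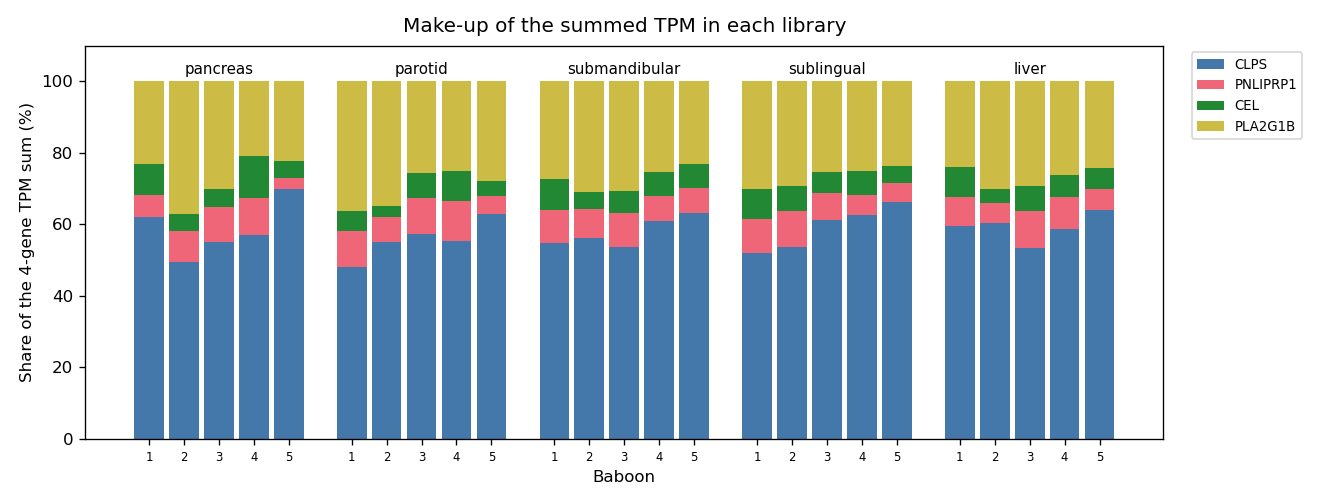
Share of each gene in the 4-gene TPM sum, in percent, in each of the 25 libraries, grouped by tissue with baboons 1 to 5 in order. CLPS makes up 48.0% to 69.9% and PLA2G1B 20.8% to 37.0% of every bar, in pancreas and elsewhere alike.

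To see whether the members fell outside the pancreas by as much as other acinar genes, each library was compared with the pancreas of the same animal. The reference was a panel of 5 acinar protease genes: CPA1, CPB1, CELA3B, CTRB2 and CTRL. Over the 20 other libraries, the members were at 0.0899% to 2.40% of their own-pancreas level, and the panel genes at 0.0837% to 3.42%. Libraries high for one set were high for the other. In parotid of baboon 1 the median was 0.17% for members and 0.110% for the panel. In submandibular gland of baboon 2 the medians were 2.01% and 2.35%, and in sublingual gland of baboon 3 they were 1.72% and 1.77%. Across these 20 libraries, which come from 5 animals, Pearson's r of log2(TPM + 1) with the panel mean was 0.936 for CLPS, 0.961 for PNLIPRP1, 0.957 for CEL and 0.924 for PLA2G1B, given as a description, since both sides share each library's scaling. Spearman's rho was 0.908, 0.925, 0.920 and 0.931 in the same order.

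The difference of each member from the panel mean on the log2 scale was then compared between each tissue and pancreas within animals, 16 tests in all. The mean ranged from -0.46 ± 0.28 for CEL in parotid to 0.11 ± 0.51 for PNLIPRP1 in parotid (SD, n = 5). CEL in parotid was lower relative to the panel in 5 of 5 animals. Its two-sided exact sign-flip p was 0.0625, the smallest that the paired test allows, and 1 after adjustment over the 16 tests. An exact permutation without the replicate block gave 0.0159 (adjusted 0.254), and with CPA1 alone as the reference the mean was -0.18. For CLPS the means were -0.27 ± 0.35 in parotid, -0.21 ± 0.45 in submandibular gland, -0.01 ± 0.33 in sublingual gland and -0.03 ± 0.60 in liver. PLA2G1B lay between -0.11 and 0.01 in the 4 tissues, and PNLIPRP1 between 0.05 and 0.11. All 16 adjusted p were 1 with the animal as block. Since the sign-flip test of 5 animals could not reach 0.05, this does not show that members and panel agree.

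**Figure D4:**
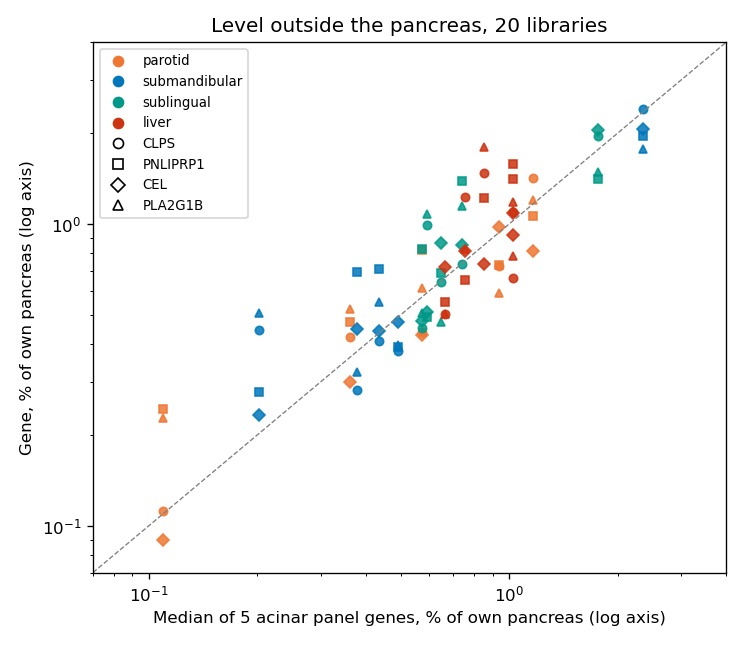
Level of each gene (marker shape) in the 20 non-pancreas libraries as a percentage of the pancreas of the same animal, against the median of the 5 acinar panel genes in that library, both on log axes, with colours for tissue. Points follow the dashed line of equality from 0.110% (panel median, parotid of baboon 1) to 2.35% (submandibular gland of baboon 2).

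Marker genes of other organs were also present at low levels. The summed hepatocyte markers were in pancreas at 1.17% of their liver mean, in parotid at 0.569%, in submandibular gland at 0.452% and in sublingual gland at 0.989%. Salivary acinar markers were relatively higher outside their glands, with median sums of 2622 TPM in pancreas and 3604 TPM in liver against 6622, 51463 and 9939 TPM in the parotid, submandibular and sublingual glands. The mean level of the 4 members outside the pancreas was 0.462% to 0.973% of their pancreas mean. RBPJL and PTF1A, transcription factors that drive acinar enzyme genes, were in liver at 1.01% and 0.905% of their pancreas mean and in parotid at 0.521% and 0.288%. By contrast BHLHA15, a factor of secretory cells in several glands, was in parotid at 62.0% and in submandibular gland at 46.1% of its pancreas mean. The part of such low-level signal from other organs in the members' values outside the pancreas was not tested.

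The members varied among the pancreas libraries. Over the 5 animals the SD of log2(TPM + 1) was 0.41 for CLPS, 0.57 for PNLIPRP1, 0.34 for CEL and 0.55 for PLA2G1B. The median SD was 0.33 over the 10505 genes with a pancreas mean of at least 1 TPM, and 0.43 over the 87 genes with at least 1000 TPM. The members did not vary together. Baboon 4 had the highest CEL but the lowest CLPS and PLA2G1B. Baboon 2 had the highest PLA2G1B and the lowest CEL. These animals were the same after TMM scaling. Baboon 5, the male, had the highest CLPS and the lowest PNLIPRP1 on both scales, and with 1 male nothing can be said of sex. Relative to the summed acinar panel, the summed members were at 1.20, 1.83, 1.63, 0.822 and 2.24 times the panel in baboons 1 to 5. Islet markers also differed between these libraries, with sums of 5959, 575, 4874, 747 and 13816 TPM in the same order, while duct markers were at 53.5 to 72.6 TPM. The part of islet content in the members' spread was not tested.

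Of 4 ratios between members, chosen after values had been seen, that of CEL to PLA2G1B had the widest range in pancreas, at 0.383, 0.131, 0.165, 0.574 and 0.211 in baboons 1 to 5, a 4.40-fold range. In the other 4 tissues of each animal the median ratio was 0.297, 0.140, 0.232, 0.268 and 0.224, a 2.11-fold range. Baboon 2 was lowest and baboons 1 and 4 were the 2 highest in pancreas and in these medians. Single tissues did not all keep this order. In parotid baboon 1 (0.151) lay below baboon 3 (0.273). Baboon 5 lay above baboon 4 in submandibular gland (0.293 against 0.264) and in liver (0.249 against 0.234), where baboon 3 (0.237) did too. In sublingual gland baboons 5 (0.199) and 3 (0.227) lay below baboon 2 (0.240). The ratio of PNLIPRP1 to CLPS was 0.0965, 0.174, 0.175, 0.180 and 0.0434 in pancreas, with medians elsewhere of 0.175, 0.136, 0.178, 0.131 and 0.0867. Baboon 5 was lowest in pancreas and in the medians, though in liver alone baboon 2 (0.0917) was marginally below it (0.0925). Baboon 1 differed, being second lowest in pancreas and second highest in the medians elsewhere. With 5 animals no correlation was computed.

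**Figure D5:**
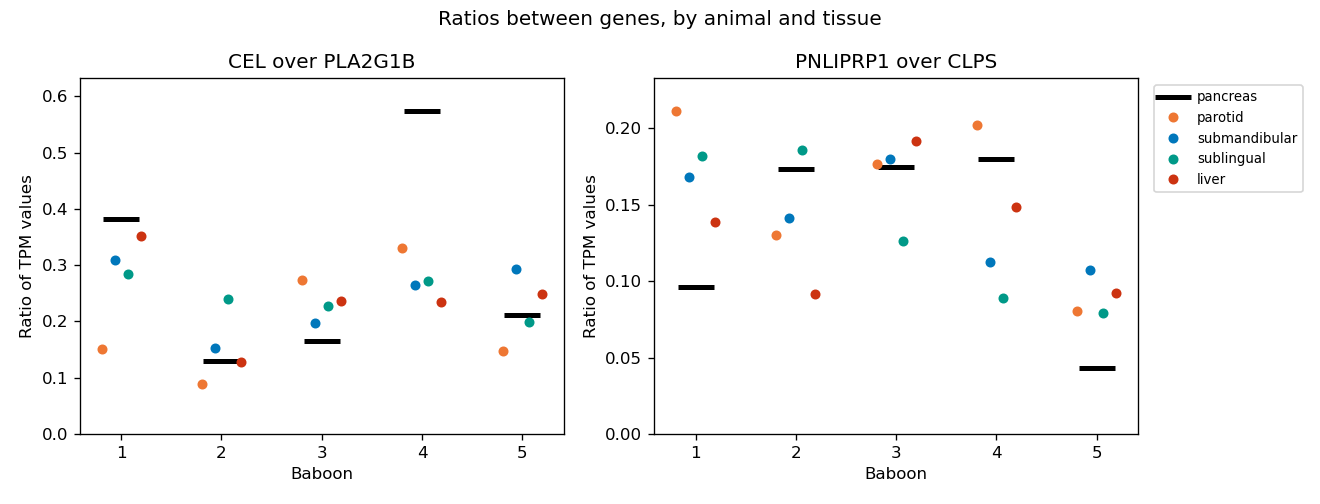
Ratio of CEL to PLA2G1B (left) and of PNLIPRP1 to CLPS (right) in TPM for each baboon, with a bar for pancreas and points for the other 4 tissues. The pancreas ratios span 0.131 to 0.574 on the left and 0.0434 to 0.180 on the right, and the medians of the other tissues span 0.140 to 0.297 and 0.0867 to 0.178.

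The genes most like each member over the 25 libraries were other products of acinar cells. Likeness was Pearson's r of log2(TPM + 1) over 12891 tested genes that carry a name, and the libraries share the gap between pancreas and the rest. For CLPS these were CTRL (r = 0.996), PLA2G1B (0.994) and ZG16 (0.994). For PNLIPRP1 they were CELA1 (0.997), CELA3B (0.994) and RBPJL (0.994). For CEL they were CPA1 (0.998), CELA3B (0.994) and SERPINI2 (0.993). For PLA2G1B they were ZG16 (0.995), CLPS (0.994) and CELA3B (0.993). CLPS and PLA2G1B were thus each among the 3 closest of the other.

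PNLIPRP1 lies between 2 unnamed protein-coding genes in the RefSeq gene order: LOC101010627, on the side of PNLIPRP3, and LOC101010994, on the other side. They were picked by position after values had been seen, and what they encode was not established. In human, the pancreatic lipase genes lie side by side in a cluster. LOC101010627 was at 32103 ± 9080 TPM in pancreas (SD, n = 5), above PNLIPRP1 in each library, and at means of 189.9 to 265 TPM elsewhere. LOC101010994 was at 4505 ± 1366 TPM in pancreas and at means of 29.2 to 51.1 TPM elsewhere. Both were called higher in pancreas than in liver, by 6.91 (SE 0.52) and 6.45 (SE 0.52) on the log2 scale in limma (adjusted p of 2.24e-10 and 6.66e-10), and higher than in each gland. LOC101010627 was the second closest of all genes to PNLIPRP1 over the 25 libraries (r = 0.997). PNLIPRP3, the last gene of this group, had a mean under 1 TPM in every tissue and was not tested. Beside CEL, the unnamed LOC116270083 was at 131 ± 97.7 TPM in pancreas. Reads from near-identical neighbours can be divided between them by the quantification, and their sequences were not compared here.

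Of the other genes in the lipase and colipase lists, those of the colipase family shared the members' direction. Both relatives of colipase, CLPSL1 and CLPSL2, were called higher in pancreas in all 4 comparisons, though 1 of the 2 was lost against parotid when only the tissues compared were fitted. CLPSL1 was at 16.1 ± 5.13 TPM in pancreas and 0.115 ± 0.193 TPM in liver (log2 difference 3.90, SE 0.23, limma adjusted p = 4.12e-12). CLPSL2, named after its values were seen, was at 8.34 ± 3.18 TPM in pancreas and 0.706 ± 0.704 TPM in liver (2.50, SE 0.36). Both were thus far below CLPS itself. They lie next to CLPS in the RefSeq gene order, and a division of reads between these neighbours was not tested.

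In the unscaled fit, no gene of the remaining lipase lists was called higher in pancreas than in liver. There, 2.86% of all genes were higher in pancreas and 14.6% higher in liver. DAGLA, an intracellular lipase named after its values were seen, missed only the size cut (0.96, SE 0.30, limma adjusted p = 0.0234). Over the alternative fits, 1 to 4 genes of the intracellular lipase list were called between pancreas and liver. Of the neutral lipases related to pancreatic lipase, 5 were tested besides PNLIPRP1. This count holds neither PNLIP (pancreatic lipase itself) nor PNLIPRP2, which were not analysed here under those symbols. It also leaves out the 2 unnamed neighbours of PNLIPRP1, and whether these are PNLIP or PNLIPRP2 was not established. Among these 5, 0 were higher and 2 lower in pancreas than in liver (median log2 difference -1.27, against -0.44 over all genes). PLA1A, a phosphatidylserine phospholipase, was one of them, at 3.18 ± 1.27 TPM in pancreas and 13.2 ± 5.37 TPM in liver, and LIPG, endothelial lipase, named after its values were seen, was the other (log2 difference -1.90). In the glands against pancreas 1 of these 5 was called, LIPH in sublingual gland (2.18, named after its values were seen). With TMM scaling 1 of the 5 was called in each of the other glands too, not necessarily LIPH or in its direction. In the unscaled fit LIPH differed by 0.47 in parotid and 0.41 in submandibular gland. PLA1A differed there by -1.10 and -1.62, and neither gene was called. Of the acid lipases, the family of gastric and lysosomal lipase, 2 of 6 passed the filter and neither was called in any of the 4 comparisons. Of the secreted phospholipases A2 and their receptor, 6 were tested besides PLA2G1B, with 0 higher and 2 lower in pancreas than in liver. PLA2G12B, which acts in the export of liver lipoproteins, was at 0.373 ± 0.403 TPM in pancreas and 25.4 ± 5.91 TPM in liver. PLA2G2A, the inflammatory secreted form, was at 0.621 ± 0.238 and 19.0 ± 4.67 TPM. None of the 6 was called in a gland against pancreas.

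Of the carboxylesterase group to which CEL belongs, 6 were tested besides CEL, and 5 were lower in pancreas than in liver. AADAC, CES1 and CES2, esterases that hydrolyse drugs and lipid esters in liver, had log2 differences of -5.47 (SE 0.41), -4.91 (SE 0.70) and -4.55 (SE 0.71). CES1 was also higher in sublingual gland than in pancreas (3.29, SE 0.70, limma adjusted p = 0.004), at 126 ± 128 against 5.82 ± 1.23 TPM. Of 11 intracellular lipases and their cofactors, 2 were lower in pancreas than in liver, a share close to the 14.6% of all genes: PNPLA3 (-3.26, SE 0.49) and ABHD6 (-1.53, SE 0.47, named after its values were seen). MGLL and ABHD5, which act in the breakdown of stored fat, exceeded their pancreas level in sublingual gland, by 3.40 (SE 0.70) and 3.23 (SE 0.78). The markers of oral epithelium summed to 77038 and 18583 TPM in sublingual gland of baboons 1 and 4 and to 261 to 352 TPM in the other 3. CES1 was at 257 and 273 TPM in those 2 libraries and at 7.52 to 53.8 TPM in the others, and MGLL and ABHD5 were highest in the same 2. Their part in these 3 differences was not tested. Without baboon 1 neither list had a called gene in that comparison, while calls over all genes fell from 1419 to 392. All 10 tested genes of bile acid synthesis and export, the liver's contribution to fat digestion, were lower in pancreas than in liver, among them SLC27A5 (-5.65, SE 0.35), AKR1D1 (-5.59, SE 0.38) and BAAT (-5.50, SE 0.31). In each gland against pancreas 1 of the 10 was called, NR0B2, a nuclear receptor, which was lower and is named after its values were seen.

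Of 11 transcription factors of acinar cells, 5 were higher and 1 lower in pancreas than in liver. RBPJL was at 496 ± 148 TPM in pancreas and 5.01 ± 1.71 TPM in liver (log2 difference 6.37, SE 0.44), PTF1A at 45.3 ± 17.2 and 0.410 ± 0.263 TPM (4.96, SE 0.28) and BHLHA15 at 72.2 ± 39.7 and 2.31 ± 0.646 TPM (4.26, SE 0.66). Lower in each gland than in pancreas were 8 of 11 in parotid, 8 of 11 in submandibular gland and 10 of 11 in sublingual gland, and none was higher. All 5 panel genes were called higher in pancreas in all 4 comparisons, with median log2 differences of 6.74 against liver and -7.63, -7.47 and -6.91 in parotid, submandibular and sublingual gland.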

How the data were processed

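The deposited values were TPM per gene, which the name of the authors' table calls kallisto abundances. The submitters' processing notes list FastQC, cutadapt, kallisto and other tools without role or version, and the index, genome build and annotation are not given in the sources used here. No scaling between libraries is recorded. TPM keeps no record of depth, so no counting interval is given. All 21287 identifiers matched a symbol in the RefSeq gene table of Panubis1.0, used only for names and gene order, so no coordinates or sequences are given and the planned promoter motif search was not run.

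Libraries were grouped by tissue and animal from their titles. Genes reaching a tissue mean of 1 TPM were tested on log2(TPM + 1) with limma 3.58.1 (trend) in R 4.3.3, with all 25 libraries, tissue and animal as terms, and Benjamini-Hochberg adjustment over genes. Tissues of a number come from the same animal. Over genes, same-animal libraries deviated from tissue means with a mean r of 0.161, different animals with -0.035. Single values were tested by exact permutation. The fit was tested on simulated data. Alternatives were TMM (written out from its published definition) and median-of-ratios scaling, no filter, a tissue mean of 5 TPM, a pseudocount of 0.1, no block, only the tissues compared, each animal left out, and 4 gland libraries left out. Other genes were named as the 3 most correlated with a member, or per list as up to 3 called genes with the largest difference against liver and 2 per gland, where the higher tissue averaged 10 TPM or more. Members and lists were chosen with earlier results of these data known. CELA2A and CTRC, also listed for the acinar panel, were not used, and another acinar gene is not reported here.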

Additional observations from a re-analysis of the deposited data

Results flagged for a closer look

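In groups of 5 libraries, a highest or lowest value was singled out where its gap to the nearest other library exceeded 0.71 of the group's range. Over 25 groups (4 genes and their sum in 5 tissues) this held for 10. Chance alone gives about 1 in 20 if values are normally distributed. Whether unscaled TPM values are normally distributed was not checked, so the 10 groups cannot be set against that rate. The groups are not independent, since the genes share libraries.

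In unscaled TPM, the submandibular library of baboon 2 stood far above the other 4 for every member: CLPS was at 1809 TPM, PNLIPRP1 at 256 TPM, CEL at 152 TPM, PLA2G1B at 994 TPM and the sum at 3212 TPM. The acinar panel was also highest there of the 20 non-pancreas libraries, with a median of 2.35% of the pancreas of the same animal. The sublingual library of baboon 3 stood apart for CLPS (1631 TPM), PLA2G1B (677 TPM) and the sum (2667 TPM), with a panel median of 1.77%. The liver library of baboon 3 was the low one, with CLPS at 418 TPM and the sum at 781 TPM, and a panel median of 0.664%, the lowest of the 5 liver libraries. The 5 pancreas libraries and the 5 parotid libraries held no such value.

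With TMM-scaled levels, an alternative chosen after seeing the data, 3 of the 25 groups held such a value: CLPS in sublingual gland (baboon 3, highest), and CLPS and the sum in liver (baboon 3, lowest). The submandibular library of baboon 2 had a TMM factor of 2.56 and no longer stood apart for any member. Its scaled CLPS was 707 against 318 to 622 in the other 4 animals, and baboon 1 was the highest for CEL and PNLIPRP1.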

How the results depend on the processing

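In 13 alternative fits, all 4 genes stayed called in the 4 comparisons with pancreas (52 of 52 values each), with sizes from 6.43 to 8.47 on the log2 scale and adjusted p of at most 0.000725, and none was called between other tissues. The summed level differed from pancreas by -7.68, -7.51, -6.91 and -6.78 in parotid, submandibular gland, sublingual gland and liver with or without the replicate block. Without the block the exact permutation p fell from 0.0625 to 0.007937 by the construction of the test, and no member's call changed.

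The sign of uncalled differences between the other tissues did change, and the cause was not tested. For sublingual gland minus liver, the 4 gland libraries rich in adipocyte, lymphocyte or skeletal muscle genes were left out. This gave 0.17 for CLPS, 0.017 for PNLIPRP1, 0.091 for CEL and 0.20 for PLA2G1B. Leaving out 1 animal gave -0.65 to 0.069, -0.54 to 0.13, -0.43 to 0.18 and -0.55 to 0.040 in the same order. For submandibular minus sublingual gland, TMM scaling gave 0.00038, 0.15, 0.028 and 0.074 in the same order, and median-of-ratios scaling gave 0.12 for PNLIPRP1 and 0.044 for PLA2G1B. For parotid minus submandibular gland, leaving out 1 animal gave -0.51 to 0.19 for CLPS, -0.35 to 0.25 for PNLIPRP1 and -0.30 to 0.24 for PLA2G1B.

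Differences from the acinar panel, none called, also changed sign. With CPA1 alone as the reference, CLPS was at 0.010 in parotid, 0.10 in sublingual gland and 0.14 in liver, CEL at 0.018 in submandibular gland, 0.083 in sublingual gland and 0.038 in liver, and PLA2G1B at 0.27 in parotid, 0.091 in submandibular gland and 0.16 in liver. With the panel median, CLPS was at 0.084 in sublingual gland and 0.17 in liver, CEL at 0.013, 0.065 and 0.062 in submandibular gland, sublingual gland and liver, and PLA2G1B at 0.23, 0.086 and 0.18 in parotid, submandibular gland and liver. A pseudocount of 0.1 gave 0.0019 for CLPS in sublingual gland and 0.00756 for PLA2G1B in parotid. Without the 4 gland libraries these 2 were at 0.033 and 0.011, and PNLIPRP1 was at -0.0998 in submandibular gland. Leaving out 1 animal gave CLPS -0.14 to 0.068 in sublingual gland and -0.16 to 0.19 in liver, and CEL -0.103 to 0.070 in sublingual gland. It gave PNLIPRP1 -0.080 to 0.25, -0.0998 to 0.17, -0.090 to 0.22 and -0.046 to 0.22 in parotid, submandibular gland, sublingual gland and liver, and PLA2G1B -0.20 to 0.18, -0.32 to 0.0028, -0.15 to 0.17 and -0.21 to 0.15.

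Over all genes, 572 differed between parotid and pancreas and 611 between submandibular gland and pancreas, against 1216 and 1276 with TMM scaling. For sublingual gland against pancreas 1419 were called, 5098 without the 4 gland libraries and 392 to 2942 with 1 animal left out. Of the counts of called genes in the lists, 41 moved by more than 1.5 times and 427 did not. The unknown depth limits what can be said of genes near 0 TPM.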
